A study of Mus musculus with 32 samples.

Results

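Genes of S phase and DNA replication were followed 1 day after thromboembolic stroke in sorted CNS-associated macrophages (CAMs) and in whole brain tissue. The module held 41 genes, fixed as a list of names and found by name in both count tables, out of 33280 genes per table, and all 41 passed the filter on low counts in tissue and in CAMs. It covered the licensing of replication origins and the replicative helicase (9 genes), the replication fork (10), nucleotide synthesis (3), chromatin and histone supply (9), DNA repair coupled to replication (8) and regulators of S phase entry (2).

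The libraries came from 8 wild-type mice, of the strain C57BL/6JCrl according to the methods of the study, that received either vehicle (CTL, mice A2, A3, A4 and B1) or BLZ945, an inhibitor of the CSF1 receptor that depletes macrophages and microglia, at 200 mg/kg for 7 consecutive days (mice C2, C3, C4 and D1). A thromboembolic occlusion of the middle cerebral artery was induced 8 weeks after the treatment, and the ipsilateral (stroke side) and contralateral hemispheres were taken 1 day later, so that every mouse carried a stroke and the control was the other hemisphere of the same brain. Each of the 8 mice gave 4 libraries, CAMs and tissue from either hemisphere, 32 in all. CAMs were sorted by CD206 from brain without choroid plexus. According to the methods of the study the gate also required CD45 and CD11b and left out cells with Ly6C, Ly6G or CD11c. The 2 ipsilateral CAM libraries of A3 and C2, marked as degraded RNA in the sample descriptions, were left out, which left 3 ipsilateral and 4 contralateral CAM libraries per treatment. The methods of the study describe pooling the cells of BLZ945 mice in pairs in a sentence on wild-type and reporter mice. A figure legend gives such pooling for the reporter experiment. The labels of the libraries used here each name 1 mouse, and whether the BLZ945 CAM libraries were pooled is not settled.

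Before S phase a cell loads the ring-shaped MCM helicase onto its replication origins with the help of Cdc6 and Cdt1, and the activated helicase then needs Cdc45 and the GINS complex to open the DNA ahead of the polymerases. The genes of this machinery are classic targets of the E2F transcription factors, which are released when cyclin-dependent kinases inactivate the retinoblastoma protein. Resting macrophages and neurons hold most of these genes at low levels, and brain macrophages can divide locally. Bulk libraries do not tell apart more cells of a type from more RNA per cell, which holds for every difference given here.

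Total counts were 9288717 to 12781505 per tissue library and 7397393 to 11081409 per CAM library, so that the limit of 3 counts stood at 0.234 to 0.321 CPM (counts scaled to library size by TMM) in tissue and at 0.253 to 0.389 CPM in CAMs, which covers counting error only. The summed level of 10 border macrophage markers (Mrc1, Cd163, Lyve1 and others) was 3295 to 17090 CPM in CAM libraries and 125 to 158 CPM in tissue. CAM libraries also held 3107 to 14904 CPM of 5 microglia markers. They were not equal between hemispheres in the RNA of other cells: endothelial markers reached 624 to 2070 CPM contralaterally and 33.6 to 168 CPM ipsilaterally, oligodendrocyte markers 407 to 4885 and 78.2 to 455 CPM, and astrocyte markers 96.4 to 778 and 69.7 to 209 CPM. Choroid plexus markers were at 24.5 to 37203 CPM contralaterally, highest in C4, and at 0.502 to 1498 CPM ipsilaterally. Monocyte markers were at 100 to 199 CPM contralaterally and 271 to 478 CPM ipsilaterally in CTL mice. In BLZ945 mice they were at 204 to 945 and 247 to 454 CPM. Neutrophil markers were at 85.6 to 2909 CPM contralaterally and 81.0 to 692 CPM ipsilaterally over both treatments. The 10 border macrophage markers themselves were at 3295 to 12714 CPM contralaterally and at 10535 to 17090 CPM ipsilaterally. The part of these differences in the results below was not tested beyond the alternatives named with them.

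S phase genes are known to be controlled by the E2F motif. Shown are the promoters of the 4 members with the smallest p between hemispheres among those that hold this motif. Each is a window of 300 bases from 250 bases before to 50 after the RefSeq start, in build GRCm38.p6, printed 5′ to 3′ on the strand of the gene with the motif in capitals. Mcm5 lies at chr8:75109259-75109558 (+), Mcm6 at chr1:128359656-128359955 (-), Hells at chr19:38930740-38931039 (+) and Uhrf1 at chr17:56304063-56304362 (+).
Mcm5: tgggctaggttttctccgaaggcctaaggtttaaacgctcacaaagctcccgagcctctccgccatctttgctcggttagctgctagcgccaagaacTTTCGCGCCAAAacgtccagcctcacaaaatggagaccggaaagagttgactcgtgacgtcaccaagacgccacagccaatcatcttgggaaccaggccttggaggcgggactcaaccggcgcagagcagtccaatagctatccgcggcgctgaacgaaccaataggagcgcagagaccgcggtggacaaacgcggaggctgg
Mcm6: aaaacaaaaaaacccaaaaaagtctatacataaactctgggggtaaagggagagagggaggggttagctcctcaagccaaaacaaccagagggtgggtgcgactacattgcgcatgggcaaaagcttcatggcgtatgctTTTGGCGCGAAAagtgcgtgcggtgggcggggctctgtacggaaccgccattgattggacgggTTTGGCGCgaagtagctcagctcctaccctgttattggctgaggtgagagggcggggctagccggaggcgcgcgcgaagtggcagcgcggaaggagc
Hells: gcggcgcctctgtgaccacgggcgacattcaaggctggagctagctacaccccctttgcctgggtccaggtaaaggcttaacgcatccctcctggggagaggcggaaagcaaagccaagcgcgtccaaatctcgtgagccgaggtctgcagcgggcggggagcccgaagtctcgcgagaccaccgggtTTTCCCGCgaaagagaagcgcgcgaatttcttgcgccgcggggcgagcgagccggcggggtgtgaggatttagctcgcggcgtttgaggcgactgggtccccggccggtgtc
Uhrf1: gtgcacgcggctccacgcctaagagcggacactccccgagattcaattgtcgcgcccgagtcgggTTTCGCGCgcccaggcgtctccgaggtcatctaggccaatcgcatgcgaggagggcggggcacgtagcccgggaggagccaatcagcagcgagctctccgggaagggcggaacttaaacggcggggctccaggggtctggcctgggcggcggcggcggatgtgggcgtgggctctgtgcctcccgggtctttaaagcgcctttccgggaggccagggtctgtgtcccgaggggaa
In the windows of Mcm5 and Mcm6 motifs on opposite strands ran into each other, and Mcm6 held one more motif further downstream. RefSeq gave a window for 31 of the 41 members, and none for Mcm4, Gins2, Gmnn, Dscc1, Tipin, Rfc2, Usp1, Exo1, Atad2 and Ccne2. An E2F motif (TTTGGCGC, TTTCGCGC, TTTCCCGC or TTTGCCGC on either strand) was in 12 of the 31, or 38.7%, against 2.6% of 27025 genes with a window. The letters CCAAT were in 22 of 31 members (71%) against 41.1% of all genes, and TTTGAA, the core of an element typical of mitotic genes, in 6 of 31 (19.4%) against 20.2%. Of 27 genes of G2 phase and mitosis with a window, 1 held the E2F motif and 20 held TTTGAA. Slbp and Mcm2, which were also called in CAMs, have windows in which no E2F motif was found. A match describes these letters in these windows and not binding.

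In CAMs the module was higher in the ipsilateral than in the contralateral hemisphere when libraries were scaled by TMM, and not when they were scaled to the border macrophage markers, where its median log2 fold change turned from 0.68 to -0.33 over the 39 members with no group of libraries at 0 (all but Brip1 and E2f8). The summed level of the 41 genes was 766, 661, 664 and 745 CPM in the contralateral CAMs of CTL mice A2, A3, A4 and B1 and 729, 716, 592.9 and 648 CPM in those of BLZ945 mice C2, C3, C4 and D1. Ipsilaterally it was 1220, 1062 and 1032 CPM in A2, A4 and B1 and 976, 1029 and 984 CPM in C3, C4 and D1. Every ipsilateral library lay above every contralateral one. In the average of both treatments 8 of 41 members rose and 0 fell (edgeR quasi-likelihood test, Benjamini-Hochberg adjusted p over all genes under 0.05 and a log2 fold change beyond 0.59), where 3.91% of all 18297 genes tested rose and 11.1% fell. DESeq2 called 7 members higher, beside 4.34% of the 15590 genes to which it gave an adjusted p. In each DESeq2 share below, all genes likewise means the genes with an adjusted p from DESeq2 in that comparison. At an unadjusted p under 0.05 stood 12 members (29.3%), beside 31.5% of all genes. The median log2 fold change of the 39 members was 0.68 beside -0.16 for all genes, and 34 of 39 were positive. Within CTL and within BLZ945 mice, 44.9% and 44.3% of all genes were positive between the hemispheres of CAMs with TMM. DESeq2's size factors moved the medians to 0.60 and -0.24, and scaling to the border macrophage markers, an alternative added after the values were seen, moved them to -0.33 and -1.25, so that the members lay 0.84, 0.85 and 0.93 above all genes on the log2 scale under the 3 scalings. With the border macrophage scaling 0 members rose and Rfc2, Tipin and Ubr7 fell. The shares of all genes that fell or were positive with this scaling were not computed. Counts of lower calls and of positive genes under it, here and below, are therefore not read as results about the genes counted. Without the 3 contralateral libraries highest in choroid plexus markers, 3 members (Mcm4, Mcm5 and Mcm6) remained called, and with the 2 degraded libraries added back 0 members were called.

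**Figure D1:**
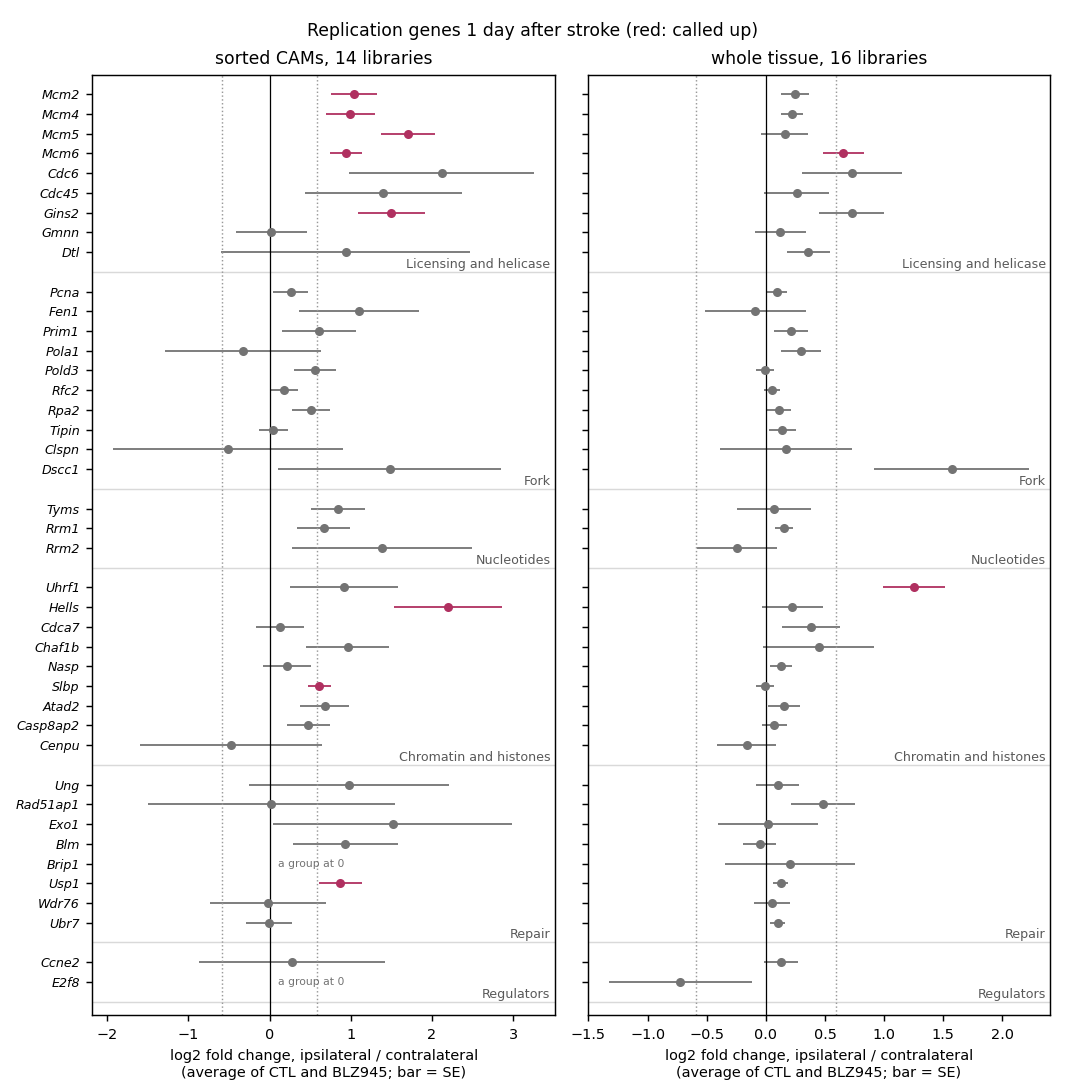
Log2 fold change of the 41 members between the ipsilateral and contralateral hemisphere, average of CTL and BLZ945 mice, in 14 CAM libraries (left) and 16 tissue libraries (right), ordered by role. Points are edgeR estimates with TMM scaling, bars their SE, dotted lines the threshold of 0.59 and red points the 8 members called in CAMs and 2 in tissue. The 9 licensing and helicase genes were all positive in both panels. With CAM libraries scaled to the border macrophage markers, 12 of 39 members were positive, beside 34 with TMM. The median of all genes was -1.25 with that scaling and -0.16 with TMM. Mcm4, Mcm6, Slbp and Usp1 were the called members that turned negative. Brip1 and E2f8 are not drawn in CAMs because all libraries of at least 1 group were at 0.

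The licensing and helicase group held 5 of the 8 called members, and all 9 of its genes were positive with TMM (median 1.04), of which 5 stayed positive with the border macrophage scaling (median 0.04). Mcm5, a subunit of the helicase ring, was at 22.5, 13.6, 9.87 and 7.76 CPM in contralateral CAMs of A2, A3, A4 and B1 and at 22.2, 13.02, 15.2 and 16.01 CPM in those of C2, C3, C4 and D1. In ipsilateral CAMs Mcm5 was at 84.9, 23.2 and 29.2 CPM in A2, A4 and B1 and at 34.0, 67.7 and 53.2 CPM in C3, C4 and D1. The hemispheres did not overlap, and A2 was the highest on both sides among CTL mice. The average log2 fold change of Mcm5 was 1.70 (SE 0.33, adjusted p = 0.0031). It kept its direction with the border macrophage scaling at 0.68, where it was not called (adjusted p = 0.22).

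Mcm6, a further ring subunit and the member with the second highest CPM in CAMs, was at 68.8, 59.4, 62.6 and 59.9 CPM in contralateral CAMs of A2, A3, A4 and B1 and at 55.2, 73.4, 25.4 and 42.0 CPM in C2, C3, C4 and D1. Ipsilateral Mcm6 was at 126, 137 and 86.6 CPM in A2, A4 and B1 and at 96.9, 99.4 and 96.3 CPM in C3, C4 and D1. No ipsilateral library reached down to the contralateral ones, of which C4 was the lowest. The log2 fold change was 0.94 (SE 0.20, adjusted p = 0.0051) with TMM and -0.09 with the border macrophage scaling (adjusted p = 0.84). Mcm5 and Mcm6 were the members whose calls held when each mouse was left out in turn.

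Mcm2, also part of the ring, was at 31.5, 28.4, 15.3 and 31.2 CPM in contralateral CAMs of CTL mice in the same order and at 20.8, 20.5, 7.37 and 23.1 CPM in those of BLZ945 mice. Ipsilaterally Mcm2 was at 41.6, 34.0 and 63.0 CPM in CTL and at 60.9, 34.9 and 35.4 CPM in BLZ945 mice. The hemispheres did not overlap, and A4 and C4 were the lowest contralateral libraries. Mcm2 rose by a log2 fold change of 1.04 (SE 0.28, adjusted p = 0.022), which fell to 0.04 with the border macrophage scaling. The call of Mcm2 was lost without B1 (adjusted p = 0.075) or C3 (0.085).

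Mcm4 was at 16.8, 21.7, 45.0 and 34.9 CPM in contralateral CAMs of A2, A3, A4 and B1 and at 30.9, 52.1, 17.7 and 17.4 CPM in C2, C3, C4 and D1. Ipsilateral Mcm4 was at 31.7, 55.4 and 71.5 CPM in A2, A4 and B1 and at 78.5, 62.01 and 56.4 CPM in C3, C4 and D1. Ipsilateral A2 overlapped the contralateral range, while within each of the 6 mice with both libraries the ipsilateral value was the higher. Its log2 fold change was 0.99 (SE 0.30, adjusted p = 0.035) with TMM and -0.10 with the border macrophage scaling. The call was lost without A3, B1, C2, C4 or D1 (adjusted p = 0.067, 0.098, 0.053, 0.092 and 0.070).

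Gins2, a subunit of the GINS complex that activates the helicase, was at 4.61, 10.1, 5.74 and 8.30 CPM in contralateral CAMs of A2, A3, A4 and B1 and at 8.10, 3.10, 3.23 and 4.31 CPM in C2, C3, C4 and D1. Ipsilaterally Gins2 was at 22.6, 20.8 and 8.15 CPM in A2, A4 and B1 and at 11.2, 23.3 and 12.7 CPM in C3, C4 and D1. B1 was the one mouse of 6 in which Gins2 was not higher ipsilaterally. The log2 fold change of Gins2 was 1.50 (SE 0.41, adjusted p = 0.021), and 0.39 with the border macrophage scaling. With the mouse as a block it was not called (adjusted p = 0.085), nor without A2 (0.069), A4 (0.086), C3 (0.052) or C4 (0.10). In the GENCODE M21 annotation 67.3% of the exons of Gins2 overlap Gse1 on the opposite strand, and the library kit does not mark strand, so that reads of the 2 genes cannot be told apart there.

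**Figure D2:**
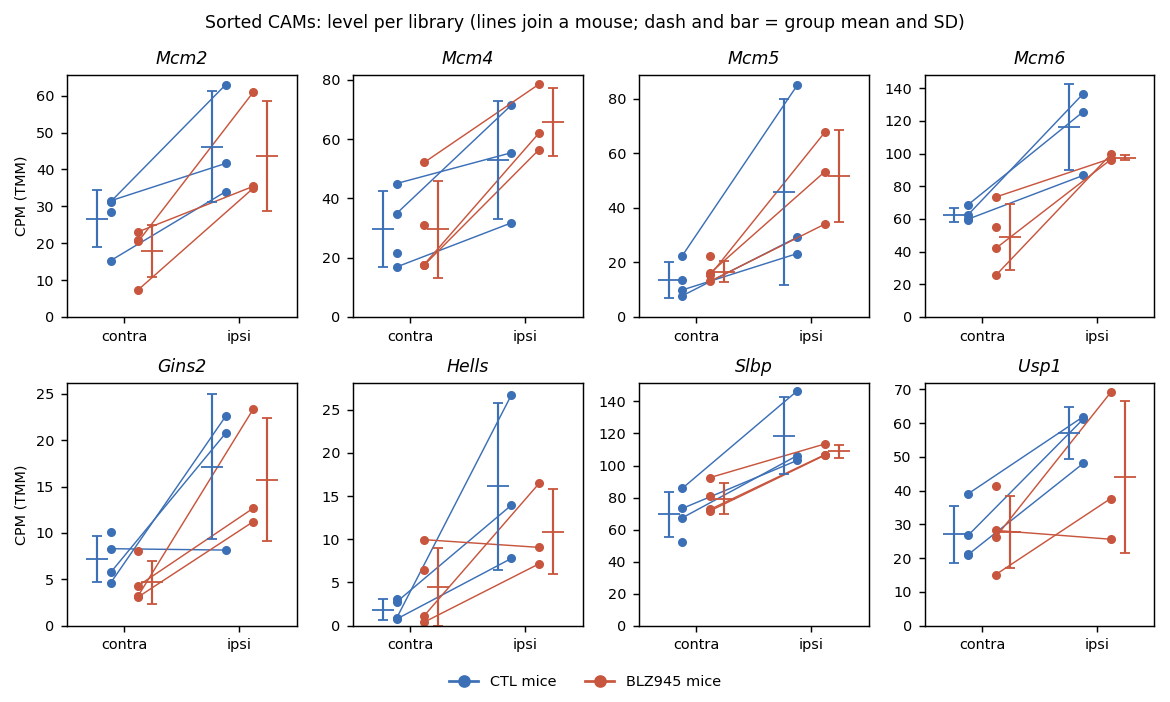
Level in CPM (TMM) of the 8 called members in each CAM library, contralateral and ipsilateral, with blue for CTL and red for BLZ945 mice. Lines join the hemispheres of 1 mouse, and dashes with bars give the group mean and SD (n = 4 contralateral, n = 3 ipsilateral per treatment). Mcm2, Mcm5, Mcm6 and Slbp did not overlap between hemispheres. The direction of Mcm4, Mcm6, Slbp and Usp1 turned when libraries were scaled to the border macrophage markers.

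The other 4 genes of the group were not called. Cdc6, which loads the helicase, ranged from 0 to 17.4 CPM in CAMs and had a log2 fold change of 2.12 (SE 1.14). Cdc45, the helicase cofactor, ranged from 0 to 14.05 CPM with 1.40 (SE 0.97). Gmnn, the inhibitor of licensing, was at 0.02 (SE 0.44), and Dtl, an adaptor for the degradation of Cdt1, at 0.94 (SE 1.53).

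Of the 9 chromatin and histone genes, Slbp and Hells rose. Slbp, which binds the stem-loop of histone mRNAs and had the highest CPM of the module in CAMs, was at 85.8, 52.0, 67.3 and 73.2 CPM in contralateral CAMs of A2, A3, A4 and B1 and at 80.8, 72.5, 71.6 and 92.4 CPM in C2, C3, C4 and D1. Ipsilateral Slbp was at 147, 106 and 103 CPM in A2, A4 and B1 and at 107, 106 and 113 CPM in C3, C4 and D1. All 6 ipsilateral libraries lay above the 8 contralateral ones, at a log2 fold change of 0.61 (SE 0.14, adjusted p = 0.010) with TMM and -0.41 with the border macrophage scaling. The fold change of Slbp lay so near the threshold of 0.59 that it dropped under it without A2 (0.59) or A3 (0.56), with the mouse as a block (0.56) and with DESeq2's size factors (0.54).

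Hells, a chromatin remodeller needed for DNA methylation at repeats, was at 0.847, 3.10, 0.760 and 2.73 CPM in contralateral CAMs of A2, A3, A4 and B1 and at 6.46, 1.14, 0.404 and 9.95 CPM in C2, C3, C4 and D1. Ipsilateral Hells was at 26.7, 7.78 and 13.9 CPM in A2, A4 and B1 and at 16.5, 7.15 and 9.06 CPM in C3, C4 and D1. Contralateral D1 lay within the ipsilateral range, and D1 was the mouse in which Hells was not higher ipsilaterally. The log2 fold change was 2.195 (SE 0.66, adjusted p = 0.036), and 1.28 with the border macrophage scaling (adjusted p = 0.16). Hells lost its call without A2, A4, B1, C3 or C4 (adjusted p = 0.12, 0.067, 0.065, 0.12 and 0.05003).

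The remaining 7 chromatin genes were not called in CAMs. Atad2, a bromodomain ATPase, reached 0.68 (log2, SE 0.30, adjusted p = 0.13), Chaf1b, a subunit of the chromatin assembly factor CAF-1, 0.96 (SE 0.52), Uhrf1, which maintains DNA methylation, 0.92 (SE 0.67) and Casp8ap2, which acts in histone gene transcription, 0.48 (SE 0.26). The histone chaperone Nasp was at 0.21 (SE 0.30), Cdca7, a partner of Hells, at 0.13 (SE 0.29) and the centromere protein Cenpu at -0.47 (SE 1.12).

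Among the 8 repair genes Usp1, a deubiquitinase that acts on PCNA, rose in CAMs. It was at 21.1, 21.3, 39.1 and 26.8 CPM contralaterally in A2, A3, A4 and B1 and at 41.4, 28.2, 15.1 and 26.3 CPM in C2, C3, C4 and D1. Ipsilateral Usp1 was at 48.0, 61.9 and 61.2 CPM in A2, A4 and B1 and at 25.6, 37.7 and 69.1 CPM in C3, C4 and D1. The CTL mice did not overlap between hemispheres, whereas ipsilateral C3 lay below its contralateral value. Usp1 had a log2 fold change of 0.87 (SE 0.27, adjusted p = 0.038) with TMM and -0.24 with the border macrophage scaling. Its call was lost without A2, A3, A4, B1, C4 or D1 (adjusted p from 0.059 without A4 to 0.16 without D1, with 0.068, 0.071, 0.099 and 0.075 for the others in that order).

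None of the 10 fork genes, of the 3 nucleotide genes or of the 2 regulators was called in CAMs (edgeR). With TMM 8 of 10 fork genes and 3 of 3 nucleotide genes were positive, where the median of all genes was -0.16. With the border macrophage scaling 2 of 10 and 1 of 3 were positive, where the median of all genes was -1.25. At an unadjusted p under 0.05 stood Pold3, a subunit of DNA polymerase delta (0.56, SE 0.26), Rpa2, which coats single-stranded DNA (0.51, SE 0.23), and Tyms, the thymidylate synthase (0.84, SE 0.33). Pcna, the sliding clamp often used to mark cycling cells, was at 35.3 ± 8.72 CPM contralaterally and 44.4 ± 10.7 CPM ipsilaterally in CTL mice (SD, n = 4 and 3) and at 34.2 ± 10.96 and 39.0 ± 5.81 CPM in BLZ945 mice. Its log2 fold change of 0.26 (SE 0.21) did not exceed the spread between mice. Rrm1, the large subunit of ribonucleotide reductase, ranged from 10.9 to 85.7 CPM with 0.67 (SE 0.33, adjusted p = 0.18), and the clamp loader subunit Rfc2 and the fork protection factor Tipin were at 0.18 (SE 0.17) and 0.04 (SE 0.18).

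Within each treatment the module was not called in CAMs by edgeR. In CTL mice 0 of 41 members were called, where 0.426% of all genes rose and 2.36% fell. DESeq2 called 3 members higher in CTL mice (Mcm5, Hells and Slbp), beside 1.82% of all genes, and 9 members (22%) were at an unadjusted p under 0.05 in edgeR, beside 18.3% of all genes. In BLZ945 mice 0 members were called, where 1.2% of all genes rose and 4.41% fell. DESeq2 called 4 members higher in BLZ945 mice (Mcm2, Mcm5, Mcm6 and Gins2), beside 2.96% of all genes, and 6 members (14.6%) were at an unadjusted p under 0.05 in edgeR, fewer than the 22.3% of all genes. With the mouse as a block 3 members (Mcm4, Mcm5 and Mcm6) rose in BLZ945 mice. The log2 fold change of Mcm5 was 1.77 (SE 0.47, adjusted p = 0.058) in CTL and 1.64 (SE 0.47, adjusted p = 0.053) in BLZ945 mice. That of Slbp in CTL mice was 0.77 (adjusted p = 0.058), that of Hells in CTL mice 3.11 (SE 0.97, adjusted p = 0.10), and those of Mcm2 and Mcm6 in BLZ945 mice 1.29 (adjusted p = 0.076) and 0.99 (adjusted p = 0.052). Leaving out C4 made 1 call in CTL mice (Mcm6), and leaving out A2 or A4 made 1 call in BLZ945 mice (Mcm5). The medians over the 39 members were 0.77 in CTL and 0.72 in BLZ945 mice with TMM, beside -0.11 and -0.15 for all genes, and turned to 0.07 and -0.79 beside -0.86 and -1.61 for all genes with the border macrophage scaling, where Tipin, Nasp, Casp8ap2 and Ubr7 fell in BLZ945 mice.

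In single CAM pairs, the count of members that were higher ipsilaterally was 32, 30 and 27 of 41 in CTL mice A2, A4 and B1 and 29, 27 and 27 of 41 in BLZ945 mice C3, C4 and D1 with TMM. With the same scaling 7 members were higher ipsilaterally in every one of the 6 mice, the ring subunits Mcm2, Mcm4, Mcm5 and Mcm6, Slbp, Chaf1b and Prim1, the small primase subunit. The share of all genes higher ipsilaterally in each mouse or in every mouse was not computed, in CAMs or in tissue. These counts are therefore not read as particular to the module. A separation of all 6 ipsilateral from all 8 contralateral libraries was seen for 4 members (Mcm2, Mcm5, Mcm6 and Slbp), beside 1.32% of all genes with the ipsilateral side higher and 4.28% with the contralateral side higher.

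**Figure D3:**
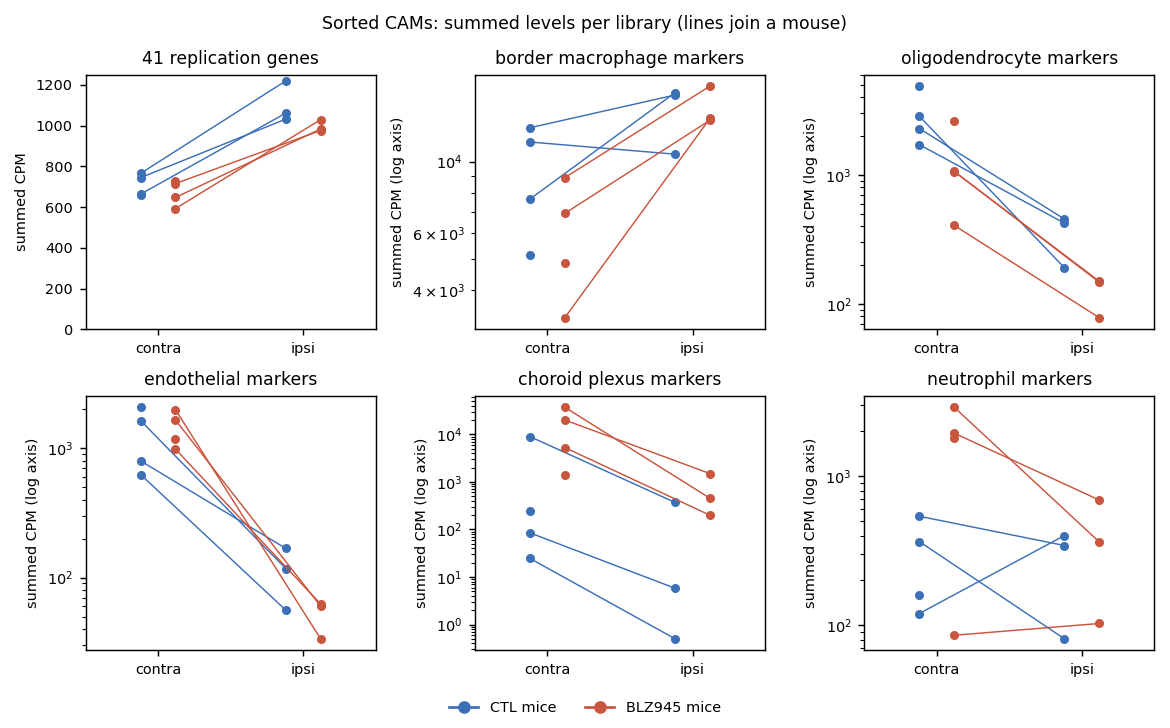
Summed CPM (TMM) per CAM library of the 41 replication genes (linear axis from 0) and of 5 marker lists (log axes), contralateral and ipsilateral, blue for CTL and red for BLZ945 mice, with lines joining 1 mouse. The replication genes lay between 976 and 1220 CPM in the ipsilateral and between 592.9 and 766 CPM in the contralateral libraries. The endothelial markers and, in each mouse with both libraries, the oligodendrocyte markers were lower ipsilaterally, and in 5 of 6 such mice the border macrophage markers were higher.

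In whole tissue few members changed between the hemispheres. The summed level of the members was 304, 303, 323 and 321 CPM in the contralateral hemisphere of A2, A3, A4 and B1 and 297, 325, 323 and 312 CPM in that of C2, C3, C4 and D1. Ipsilaterally it was 356, 337, 337 and 319 CPM in CTL and 353, 376, 352 and 328 CPM in BLZ945 mice in the same order. The ipsilateral value was the higher in 7 of 8 mice, and B1 was the exception. In the average of both treatments 2 of 41 members rose, Uhrf1 and Mcm6, and 0 fell, where 1.93% of all 18968 genes rose and 0.0738% fell. DESeq2 called the same 2 members, beside 2.43% of all genes, and 5 members (12.2%) were at an unadjusted p under 0.05 in edgeR, beside 14.3% of all genes. The median over the members was 0.14 beside -0.01 for all genes, and the largest median of a role group was that of licensing and helicase at 0.26, with 9 of 9 positive. Of all genes 47.7% were positive. Markers of blood-borne cells were also higher on the stroke side of the tissue. The summed level of 5 monocyte markers was 0 to 1.07 CPM contralaterally and 0.781 to 5.95 CPM ipsilaterally, and that of the neutrophil markers 0 to 1.12 and 0.547 to 4.53 CPM. Border macrophage markers were at 125 to 149 and 135 to 158 CPM, and microglia markers at 91.5 to 112 and 76.2 to 98.95 CPM. Their part in the tissue results was not tested.

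Uhrf1, which reads hemimethylated DNA behind the fork and recruits the maintenance methyltransferase, was at 1.11, 0.680, 1.13 and 0.647 CPM contralaterally in A2, A3, A4 and B1 and at 0.643, 1.05, 0.651 and 0.843 CPM in C2, C3, C4 and D1. In ipsilateral tissue Uhrf1 was at 2.03, 0.857, 2.30 and 1.15 CPM in CTL and at 2.27, 4.01, 2.21 and 1.80 CPM in BLZ945 mice. It was the member that was higher ipsilaterally in all 8 mice, ipsilateral A3 overlapped the contralateral range, and C3 was the highest library. Uhrf1 rose in the average by 1.25 (log2, SE 0.26, adjusted p = 0.013) and in BLZ945 mice by 1.68 (SE 0.38, adjusted p = 0.032), and was at 0.82 (SE 0.37, adjusted p = 0.76) in CTL mice. The call in BLZ945 mice was lost without C2, C3, C4 or D1 (adjusted p = 0.19, 0.12, 0.14 and 0.089). The hemispheres of A3 tissue differ between the sample titles, used here, and the names of the columns, and with the latter both calls of Uhrf1 were lost at an adjusted p of 0.094.

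Mcm6 in tissue was at 10.2, 8.84, 7.22 and 9.34 CPM contralaterally in A2, A3, A4 and B1 and at 5.57, 6.79, 7.54 and 7.58 CPM in C2, C3, C4 and D1. Ipsilateral Mcm6 was at 17.7, 11.4, 9.90 and 7.74 CPM in CTL and at 18.1, 12.1, 13.03 and 8.79 CPM in BLZ945 mice. A2 and C2 were far above the rest, and B1 was lower on the ipsilateral side. The average log2 fold change of Mcm6 was 0.66 (SE 0.17, adjusted p = 0.043), and the call was lost without A2, A3, A4, C2, C3 or C4 (adjusted p = 0.10, 0.12, 0.074, 0.18, 0.082 and 0.094) and with A3 as in the column names (0.23). In BLZ945 mice it was 0.92 (SE 0.24, adjusted p = 0.081), which the mouse as a block turned into a call (0.89, adjusted p = 0.015).

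**Figure D4:**
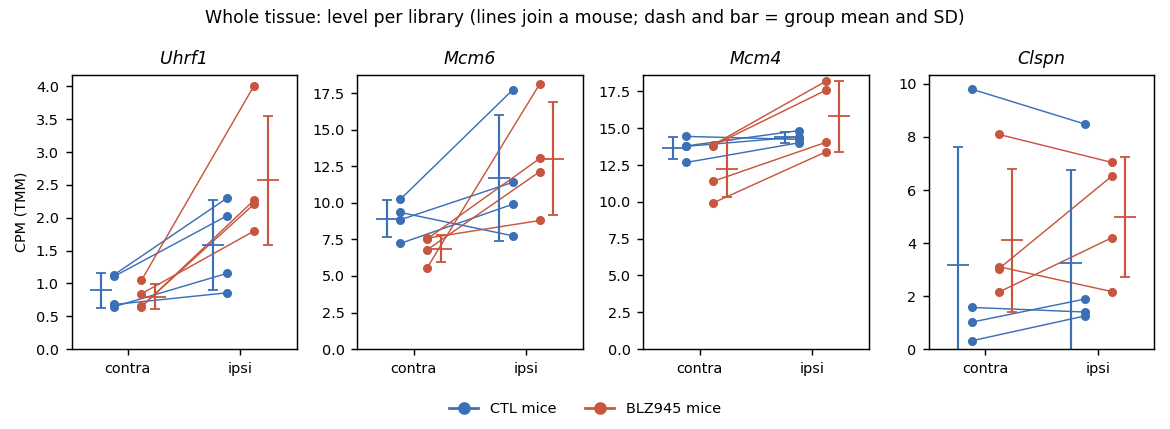
Level in CPM (TMM) of Uhrf1, Mcm6, Mcm4 and Clspn in each tissue library, contralateral and ipsilateral, blue for CTL and red for BLZ945 mice, with lines joining 1 mouse and the group mean and SD (n = 4). Uhrf1 was higher ipsilaterally in all 8 mice and Mcm6 in 7 of 8. Clspn was highest in A4 and C4 and was higher ipsilaterally in 4 of 8 mice.

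In BLZ945 tissue 1 of 41 members rose and 0 fell, where 1.12% of all genes rose and 0.0369% fell. DESeq2 called 2 members there (Uhrf1 and Mcm6), beside 1.94% of all genes, and 5 members (12.2%) were at an unadjusted p under 0.05 in edgeR, beside 10.8% of all genes. In CTL tissue 0 members were called by edgeR, where 0.443% of all genes rose and 0% fell, and 0 by DESeq2, where 0.817% rose. At an unadjusted p under 0.05 were 3 members (7.32%; Uhrf1, Cdca7 and Dscc1), beside 6.23% of all genes. Cdca7 was at 1.92 ± 0.826 CPM contralaterally and 3.24 ± 1.10 CPM ipsilaterally in CTL mice (SD, n = 4), a log2 fold change of 0.76 (SE 0.35, adjusted p = 0.78). Dscc1, part of a clamp loader for sister chromatid cohesion, was at 0 to 0.468 CPM over all tissue libraries, about the limit of 3 counts. Gins2 was at 0.72 (SE 0.28, adjusted p = 0.22) in the average, with the overlap with Gse1 given above, and Mcm4 in BLZ945 mice at 0.37 (SE 0.13, adjusted p = 0.24).

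The most abundant members in tissue had small log2 fold changes. Ubr7, a ubiquitin ligase that acts on histones, was at 42.5 ± 3.25 and 44.3 ± 3.53 CPM in contralateral and ipsilateral CTL tissue (SD, n = 4) and at 44.2 ± 4.90 and 48.9 ± 3.22 CPM in BLZ945 tissue. Rfc2 ranged from 27.9 to 37.3 CPM, Pold3 from 19.1 to 29.01, Rrm1 from 18.4 to 25.4, Usp1 from 18.6 to 26.5 and Slbp from 14.5 to 20.9 CPM over the 16 libraries, and the log2 fold changes of these 5 lay between -0.01 and 0.16 in the average. Slbp, called in CAMs, was at -0.01 (SE 0.07) in tissue. Per kilobase of exon the highest members in tissue were Ubr7 (13.8 CPM per kb), Pcna (6.35), Tipin (6.09) and Usp1 (5.65), and in CAMs Tipin (25.4), Mcm6 (16.7), Pcna (15.7) and Slbp (15.03).

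Many members were near the detection limit. In CAMs 27 of 41 were above 0 in all 14 libraries and 26 above 3 counts in all, and in tissue 37 and 34 in all 16. Brip1, a helicase of DNA repair, was at 0 in all 7 CAM libraries of BLZ945 mice, and in CTL mice at 0, 1.64, 0 and 1.53 CPM contralaterally (A2, A3, A4 and B1) and at 0, 5.45 and 0.107 CPM ipsilaterally (A2, A4 and B1). E2f8, a repressor of the E2F family, stayed between 0 and 0.908 CPM in CAMs. Fold changes of these 2 genes depend on groups at 0 and are not given.

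No member was called between BLZ945 and CTL mice, in level or in response to stroke. The ipsilateral response of BLZ945 mice minus that of CTL mice was called for 0 of 41 members in tissue and 0 in CAMs by edgeR and by DESeq2. Of all genes edgeR called 0% in either table, and DESeq2 0% in tissue and 0.271% in CAMs. At an unadjusted p under 0.05 were 0 and 1 members, beside 2.04% and 4.98% of all genes. BLZ945 was compared with CTL also within the ipsilateral and within the contralateral hemisphere. There 0 members and 0% of all genes were called in either table by edgeR, and DESeq2 called 0 members, beside 0.00527% and 0% of all genes in ipsilateral and contralateral tissue and 0.86% and 0.267% in ipsilateral and contralateral CAMs. At an unadjusted p under 0.05 were 0 members in tissue, beside 4.52% and 3.25% of all genes ipsilaterally and contralaterally, and 1 in CAMs (Brip1 on either side), beside 5.65% and 6.19%. In the CAM interaction Casp8ap2 was at -1.14 (log2, SE 0.53, adjusted p = 0.99) and Rfc2 at 0.58 (SE 0.33, adjusted p = 1.00), the latter at -0.20 with the border macrophage scaling. In ipsilateral CAMs Cdca7 was at 34.9 ± 10.7 CPM in CTL and 19.2 ± 2.76 CPM in BLZ945 mice (SD, n = 3 each), a log2 fold change of -0.86 (SE 0.45, adjusted p = 0.84). In tissue the members with the smallest p in the interaction were Uhrf1 (0.86, SE 0.53), Mcm6 (0.53, SE 0.34) and Mcm4 (0.29, SE 0.18), each at an adjusted p of 1.00. Between treatments in ipsilateral tissue they were Uhrf1 (0.69, SE 0.35), Slbp (-0.19, SE 0.10) and Brip1 (-1.40, SE 0.74), and in contralateral tissue Casp8ap2 (0.26, SE 0.15), Cdca7 (0.62, SE 0.36) and Blm, a repair helicase (-0.30, SE 0.19). In contralateral CAMs Cdc45 was at -2.61 (SE 1.36, adjusted p = 0.76).

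Of 33 further replication genes, 4 rose and 0 fell in the CAM average with TMM (median 0.48), and 0 rose and 4 fell with the border macrophage scaling (median -0.65). Of all genes 3.91% rose and 11.1% fell with TMM, and their medians were -0.16 with TMM and -1.25 with the border macrophage scaling. Mcm3, another ring subunit, was at 58.0 ± 17.5 and 135 ± 34.4 CPM in contralateral and ipsilateral CTL CAMs and at 39.6 ± 15.7 and 112 ± 25.4 CPM in BLZ945 CAMs (SD, n = 4 and 3). Its log2 fold change was 1.35 (SE 0.23, adjusted p = 0.0013) with TMM and 0.42 with the border macrophage scaling. The licensing factor Cdt1 rose by 1.50 (SE 0.46, adjusted p = 0.039), and Mcm7 by 0.81 (SE 0.24, adjusted p = 0.036), where the border macrophage scaling gave 0.56 and -0.38 with no call. The fourth called gene was Rfc3 (0.70, adjusted p = 0.047), at -0.41 with that scaling. Rfc1, the large clamp loader subunit, was called in the comparison of hemispheres in BLZ945 mice, at 1.40 (SE 0.32, adjusted p = 0.020) there, -0.19 in CTL mice and 0.61 in the average (adjusted p = 0.077), and at 0.02 in BLZ945 mice with the border macrophage scaling. In the tissue average Mcm3 was the 1 gene of the 33 that rose, by 0.91 (SE 0.14, adjusted p = 0.0011), where 1.93% of all genes rose.

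Of 30 genes of G2 phase and mitosis, 0 rose and 1 fell in the CAM average (edgeR, 2 at an unadjusted p under 0.05), with 12 of 30 positive and a median of -0.42 with TMM. Of all genes 3.91% rose, 11.1% fell and 31.5% were at an unadjusted p under 0.05, with a median of -0.16. With the border macrophage scaling 0 rose and 4 fell, at a median of -1.30 beside -1.25 for all genes. The 1 gene called with TMM was Ube2c, an E2 enzyme of the anaphase-promoting complex, at 3.03 ± 2.41 and 0.358 ± 0.619 CPM in contralateral and ipsilateral CTL CAMs and at 1.36 ± 0.479 and 0 CPM in BLZ945 CAMs. In the tissue average 0 of the 30 were called, where 1.93% of all genes rose and 0.0738% fell. At an unadjusted p under 0.05 stood 0 of the 30, beside 14.3% of all genes.

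Of 20 genes that control G1 phase, 3 rose and 4 fell in the CAM average with TMM (median 0.32), where 3.91% of all genes rose and 11.1% fell. With the border macrophage scaling 0 of the 20 rose and 8 fell (median -0.78). E2f1, the activating E2F, rose by 1.42 (SE 0.43, adjusted p = 0.037), and was at 0.33 with the border macrophage scaling. The inhibitors of cyclin-dependent kinases Cdkn1c and Cdkn1a fell by 2.53 (SE 0.43, adjusted p = 0.0012) and 0.99 (SE 0.32, adjusted p = 0.046) on the log2 scale with TMM. The border macrophage scaling moved the median of all genes down to -1.25. A lower value of these 2 inhibitors under it is therefore no further evidence. E2f7, a repressor, was at 2.26 ± 1.93 CPM in contralateral CTL CAMs and at 0 in all ipsilateral libraries. In the tissue average 3 of these 20 genes rose, Cdk6 (0.85, SE 0.16, adjusted p = 0.0063), Cdkn1a (0.82, SE 0.10, adjusted p = 0.00013) and the growth regulator Myc (0.78, SE 0.18, adjusted p = 0.020). Of all genes 1.93% rose there. Cdkn1a was lower in ipsilateral CAMs and higher in ipsilateral tissue.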

How the data were processed

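Gene-level read counts of sorted CAMs and of whole tissue were analysed as deposited by the authors, who per the labels used bcl2fastq 2.20, STAR 2.7.11a, featureCounts 2.0.8 and DESeq2 1.46.0. The libraries were amplified without molecular identifiers or strand, and mm10 and GRCm39 are both named for the series, so that no coordinate was taken from the counts. Each of the 8 mouse labels was taken as a separate animal. The hemispheres of A3 tissue were taken from the sample titles, and all columns were mapped (0 unmapped).

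Tables were fitted separately with edgeR 4.0.16 (quasi-likelihood test, TMM) in R 4.3.3, with 1 mean per treatment and hemisphere. Genes needed a summed count of 8 in tissue (16 libraries) or 7 in CAMs (14 libraries). SE was derived from the log2 fold change and the F statistic. Calls needed an adjusted p (Benjamini-Hochberg, over all genes) under 0.05 and a log2 fold change beyond 0.59. Every p printed is from this test or, where named, from DESeq2 1.42.0. CPM come from edgeR with TMM-scaled library sizes, and exon lengths and overlaps came from GENCODE M21. Ratios per mouse used a pseudocount of 0.5 CPM. The script was tested on simulated data.

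Named were all called members, the 3 of smallest p per comparison, the 6 of highest CPM per table, and up to 4 called genes of each other list. The members and lists were chosen with earlier results of these data known. Hemispheres of 1 mouse were paired by the animal, and the deviations of paired libraries from their group means correlated at 0.142 to 0.543 in tissue (8 pairs) and 0.0489 to 0.185 in CAMs (6 pairs), beside medians of -0.0519 and -0.0248 between mice. The fit without the block was the main one. Chi-square per gene between replicates was 4.49 to 30.1 in tissue and 35.1 to 139 in CAMs, so that no library was a copy of another. Alternatives were DESeq2 and its size factors, other filters and fold thresholds, the mouse as a block, each mouse left out, plain library totals, the other assignment of A3 tissue, all 16 CAM libraries, and, added after the values were seen, scaling to the border macrophage markers and leaving out 3 contralateral CAM libraries.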

Additional observations from a re-analysis of the deposited data

Results flagged for a closer look

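In 96 groups of 4 libraries, over the members named and both tables, 8 (8.33%) held a library set apart from the other 3 by Dixon's 95% limit, which chance alone passes in about 1 of 20 groups. In tissue Blm was at 6.18 CPM in contralateral A2 (the others 4.84 to 4.99), Brip1 at 0.418 CPM in contralateral C3 (0.0930 to 0.107), and Casp8ap2 at 10.2 CPM in contralateral B1 (12.1 to 12.2). Usp1 in tissue was at 26.5 CPM in ipsilateral C3 (21.8 to 22.5) and at 18.95 CPM in contralateral A3 (20.6 to 20.9). In CAMs Mcm2 was lowest in contralateral C4 at 7.37 CPM (the others 20.5 to 23.1) and Pold3 highest there at 57.5 CPM (35.6 to 36.5), the library with the highest choroid plexus markers. E2f8 was at 0.616 CPM in contralateral D1 and at 0 in the other 3 CAM libraries of its group.

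The 2 ipsilateral CAM libraries marked as degraded were left out of every main comparison and still held counts of the module. A3 had 138 member counts over 26 members in a total of 54055, or 2553 CPM of plain library totals (exact binomial 95% interval 2145 to 3015). C2 had 79 over 14 members in a total of 55155, or 1432 CPM (1134 to 1785). Both intervals cover counting error only, and the libraries were amplified without molecular identifiers. Replicates among the other CAM libraries differed by more than counting error (chi-square per gene 35.1 to 139). The 2 levels are therefore not set against those of the other libraries. Slbp had 3 counts in each, and Mcm6 had 0.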

How the results depend on the processing

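Among the alternative values of member counts and summed levels, 172 kept their size, 21 moved, 11 went from 0 members called to at least 1, and 7 went to 0. In the CAM average (8 members called) the count was 5 with DESeq2's size factors, 4 at a log2 fold change of 1, 4 to 8 with 1 mouse left out, 0 with all 16 libraries, 3 (all lower) with the border macrophage scaling and 3 without the 3 contralateral libraries highest in choroid plexus markers. With the mouse as a replicate block it was 6. Among the members called or with the 3 smallest p in a comparison, the border macrophage scaling reversed Mcm4 (-0.10), Mcm6 (-0.091), Slbp (-0.41) and Usp1 (-0.24) in the average. It also reversed Mcm6 in BLZ945 mice (-0.35) and Rfc2 in the interaction (-0.20). In CTL CAMs (0 called) the count was 3 with DESeq2, 1 with no filter, 1 with edgeR's filterByExpr and 0 to 1 with 1 mouse left out. In BLZ945 CAMs (0 called) it was 4 with DESeq2, 2 with no filter, 2 with filterByExpr, 3 with the replicate block, 4 (all lower) with the border macrophage scaling and 0 to 1 with 1 mouse left out. In BLZ945 tissue (1 called) it was 2 with DESeq2, 2 with the replicate block, 0 to 2 with 1 mouse left out and 0 with the hemispheres of A3 as in the column names. In the tissue average (2 called) it was 1 at a log2 fold change of 1, 1 to 2 with 1 mouse left out and 0 with A3 as in the column names. The replicate block changed the count of calls in no other comparison, and could not be fitted between treatments because each mouse had 1 treatment. The summed level of the members in ipsilateral BLZ945 CAMs was 930 CPM with plain library totals beside 996 CPM with TMM. The cause of these changes was not tested, except that leaving out mice leaves fewer samples. Members under 3 counts per library could not be resolved at this depth.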

Other observations

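Clspn, a fork protection factor singled out after its values were seen, differed between mice in tissue. Clspn was higher ipsilaterally in 4 of 8 mice, with log2 ratios per mouse from -0.43 to 1.10. It was at 9.80 and 8.49 CPM in the contralateral and ipsilateral hemisphere of A4 and at 8.09 and 7.04 CPM in those of C4, and at 3.03 and 6.52 CPM in C3. In the other 5 mice Clspn ranged from 0.317 to 4.20 CPM. Choroid plexus markers in the tissue of A4, C3 and C4 were at 2.93 to 9.36 CPM, and at 38.3 to 4215 CPM in the other 5 mice. The relation was not tested.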
